A study of Mus musculus with 2 samples.

Results

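A set of 9 genes for Fc receptors and the adaptors and kinases that signal with them was followed across the immune cells of mouse tumours. They are the adaptor chains Fcer1g and Tyrobp, the IgG receptors Fcgr1, Fcgr2b, Fcgr3 and Fcgr4, the IgE receptor chain Ms4a2, and the tyrosine kinases Syk and Lyn, which makes 9 of the 32245 gene symbols listed, and all 9 were found. They were taken by symbol and chosen by measured values in part, namely because Fcer1g was higher in KPT CD8 T cells and Lyn in KPT NK cells, so those values are descriptions and support nothing. The series, whose title concerns Tdg in cancer that lacks p53, measured immune cells of tumours in 2 droplet libraries of RNA 3′ ends, 1 for each group. The KPT library carries the genotype label Tdg KO and the KP library the label WT, where Tdg encodes thymine DNA glycosylase, a DNA repair enzyme. Both come from tumours that the labels call "allogroft tumour" and the series text calls subcutaneous KP tumours, taken on day 14 after inoculation, broken up, spun over Percoll and sorted for live single cells bearing CD45. The labels give the cells as lymphocytes and immune cells, and they do not say what KP stands for, which cells carry the Tdg deletion, how many mice were pooled, or their strain and age. With 1 library per group no test between KPT and KP was possible. Ratios are KPT over KP, followed in parentheses by a 95% interval that covers counting error only, not the spread between mice.

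Fc receptors bind the constant part of antibodies and link them to phagocytes, NK cells, mast cells and basophils. Most activating receptors cannot signal alone. They sit beside small adaptor chains such as the Fc receptor gamma chain (Fcer1g) or DAP12 (Tyrobp), whose tails hold an ITAM, a pair of tyrosine boxes. Src-family kinases such as Lyn add phosphate to the ITAM, Syk binds it and passes the signal on, and the inhibitory receptor Fcgr2b counters it with an ITIM. In NK cells the same adaptors also serve receptors that bind no antibody, while conventional T cells signal mainly through CD3 chains, Lck and Zap70.

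The coding sequences of the boxes are shown because the ITAM separates the chains that carry their own from the other genes among the 9. They were read from GENCODE M21 transcripts (mouse build GRCm38, the mm10 of the deposited files), in the gene's own direction, with the codons of each ITAM box, or of the ITIM match, in capitals.
Fcer1g ITAM: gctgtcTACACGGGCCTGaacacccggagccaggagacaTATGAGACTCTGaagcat
Tyrobp ITAM: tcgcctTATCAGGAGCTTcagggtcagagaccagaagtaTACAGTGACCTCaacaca
Ms4a2 ITAM: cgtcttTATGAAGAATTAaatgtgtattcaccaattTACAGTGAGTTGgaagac
Fcgr2b ITIM: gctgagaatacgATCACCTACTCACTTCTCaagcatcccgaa
A box is a tyrosine, any 2 residues and a leucine or isoleucine, and an ITAM was counted where 2 boxes lay 6 to 12 residues apart. Among the principal proteins of the 9 genes, Fcer1g, Tyrobp and Ms4a2 each held 1 such pair and the other 6 genes held 0. The marked ITIM stretch is 6 codons, in which isoleucine, leucine, valine or serine, then any residue, precede a tyrosine, and any 2 residues and a leucine, valine or isoleucine follow it. That pattern is loose: it also matched 3 times in Fcgr1 and 1 time each in Fcer1g, Tyrobp, Fcgr4 and Lyn, so the match does not set Fcgr2b apart. The boxes were 7 residues apart in Fcer1g and Tyrobp and 6 in Ms4a2. The Fcer1g stretch lies at chr1:171229883-171230078 on the minus strand and the Tyrobp stretch at chr7:30415664-30417388 on the plus strand, both across an intron. The Ms4a2 stretch lies at chr19:11617506-11617559 and that of Fcgr2b at chr1:170961059-170961100, each on the minus strand and within 1 exon. The whole genes Fcer1g (chr1:171229572-171234365), Fcgr2b (chr1:170958617-170976547), Fcgr3 (chr1:171051174-171064935) and Fcgr4 (chr1:171018920-171029761) lie close together. Fcgr1 lies at chr3:96282909-96293969, Ms4a2 at chr19:11615523-11623719, Syk at chr13:52583173-52648792, Lyn at chr4:3678115-3813122 and Tyrobp at chr7:30413760-30417585. Lyn overlaps 4 genes on the other strand (among them 9430025C20Rik), and whether the counting used strand is not stated in any label or header.

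The libraries held 52586319 unique molecular identifiers (UMIs, 1 per captured RNA molecule) in 5896 barcodes in KPT and 39819010 in 5604 barcodes in KP. The cells that passed a minimum of 200 genes and a mitochondrial share of no more than 10% numbered 5693 in KPT and 5504 in KP, with medians of 6419 and 5378 UMIs. Among kept cells the libraries shared 7 barcode sequences. Ptprc, the CD45 gene, had a UMI in 90.3% of kept KPT cells and 83.6% of kept KP cells. Tdg stood at 26.5 CPM (counts per 1000000 UMIs of the cells named) in the library labelled Tdg KO and 25.1 CPM in the library labelled WT, so its level in these immune cells did not separate the labels, and a 3′ end tag need not lie in the deleted stretch. Cells of both libraries were clustered together without the 9 genes and named "X-like" from marker genes, which gave 16 classes, 9 of them with at least 100 cells in each library. Barcodes with genes of both T cells and phagocytes made up 13.2% of kept KPT cells and 6.47% of kept KP cells. Clusters rich in them stayed unnamed and out of the compared classes. These and the other unnamed clusters held 32.1% of the Fcer1g UMIs in KPT and 19.8% in KP, and 58.7% and 31.6% of the Fcgr2b UMIs.

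The adaptors Fcer1g and Tyrobp had the most UMIs of the 9 genes in both libraries and were high in every phagocyte class and in NK-like cells. Fcer1g, the common gamma chain, stood at 3119 CPM in KPT and 3611 CPM in KP in neutrophil-like cells. In macrophage-like cells it stood at 2831 CPM in KPT and 3141 CPM in KP. In NK-like cells it stood at 2117 CPM in KPT and 2268 CPM in KP, with a UMI in 99.2% of KPT and 98.7% of KP cells. In both libraries the order from the top was thus neutrophil-like, macrophage-like, monocyte-like and NK-like. In KPT the monocyte-like level of 2154 CPM and the NK-like level had overlapping intervals (2058 to 2254 and 2084 to 2151), whereas in KP the monocyte-like level of 2811 CPM lay above the NK-like one. Basophil-like cells followed with 1514 CPM in KPT and 2193 CPM in KP, where the KPT value rests on 37 cells. The dendritic classes ran from 294 CPM in KPT and 273 CPM in KP in cDC1-like cells to 1105 CPM in KPT and 1424 CPM in KP in cDC2-like cells. At the low end stood Treg-like cells, with 16.4 CPM in KPT and 16.7 CPM in KP, naive T-like cells, with 23.3 CPM in KPT and 15.4 CPM in KP, and gamma-delta T-like cells, with 13.9 CPM in KPT and 33.1 CPM in KP. In KP gamma-delta T-like cells stood slightly above CD4 T-like cells, whose level was 31.1 CPM. The 3 classes had overlapping intervals in KPT, from 7.75 to 33.1 CPM over all 3.

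Tyrobp, which encodes DAP12, the partner of many activating receptors of myeloid and NK cells, had a similar spread. It was highest in neutrophil-like cells, at 4332 CPM in KPT and 4757 CPM in KP. Plasmacytoid DC-like cells had 2878 CPM in KPT and 3127 CPM in KP, with 53 KPT and 25 KP cells. NK-like cells had 1870.3 CPM in KPT and 2007 CPM in KP. The lowest KPT level was that of Treg-like cells, 9.35 CPM, and the lowest KP level that of naive T-like cells, 13.7 CPM.

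**Figure D1:**
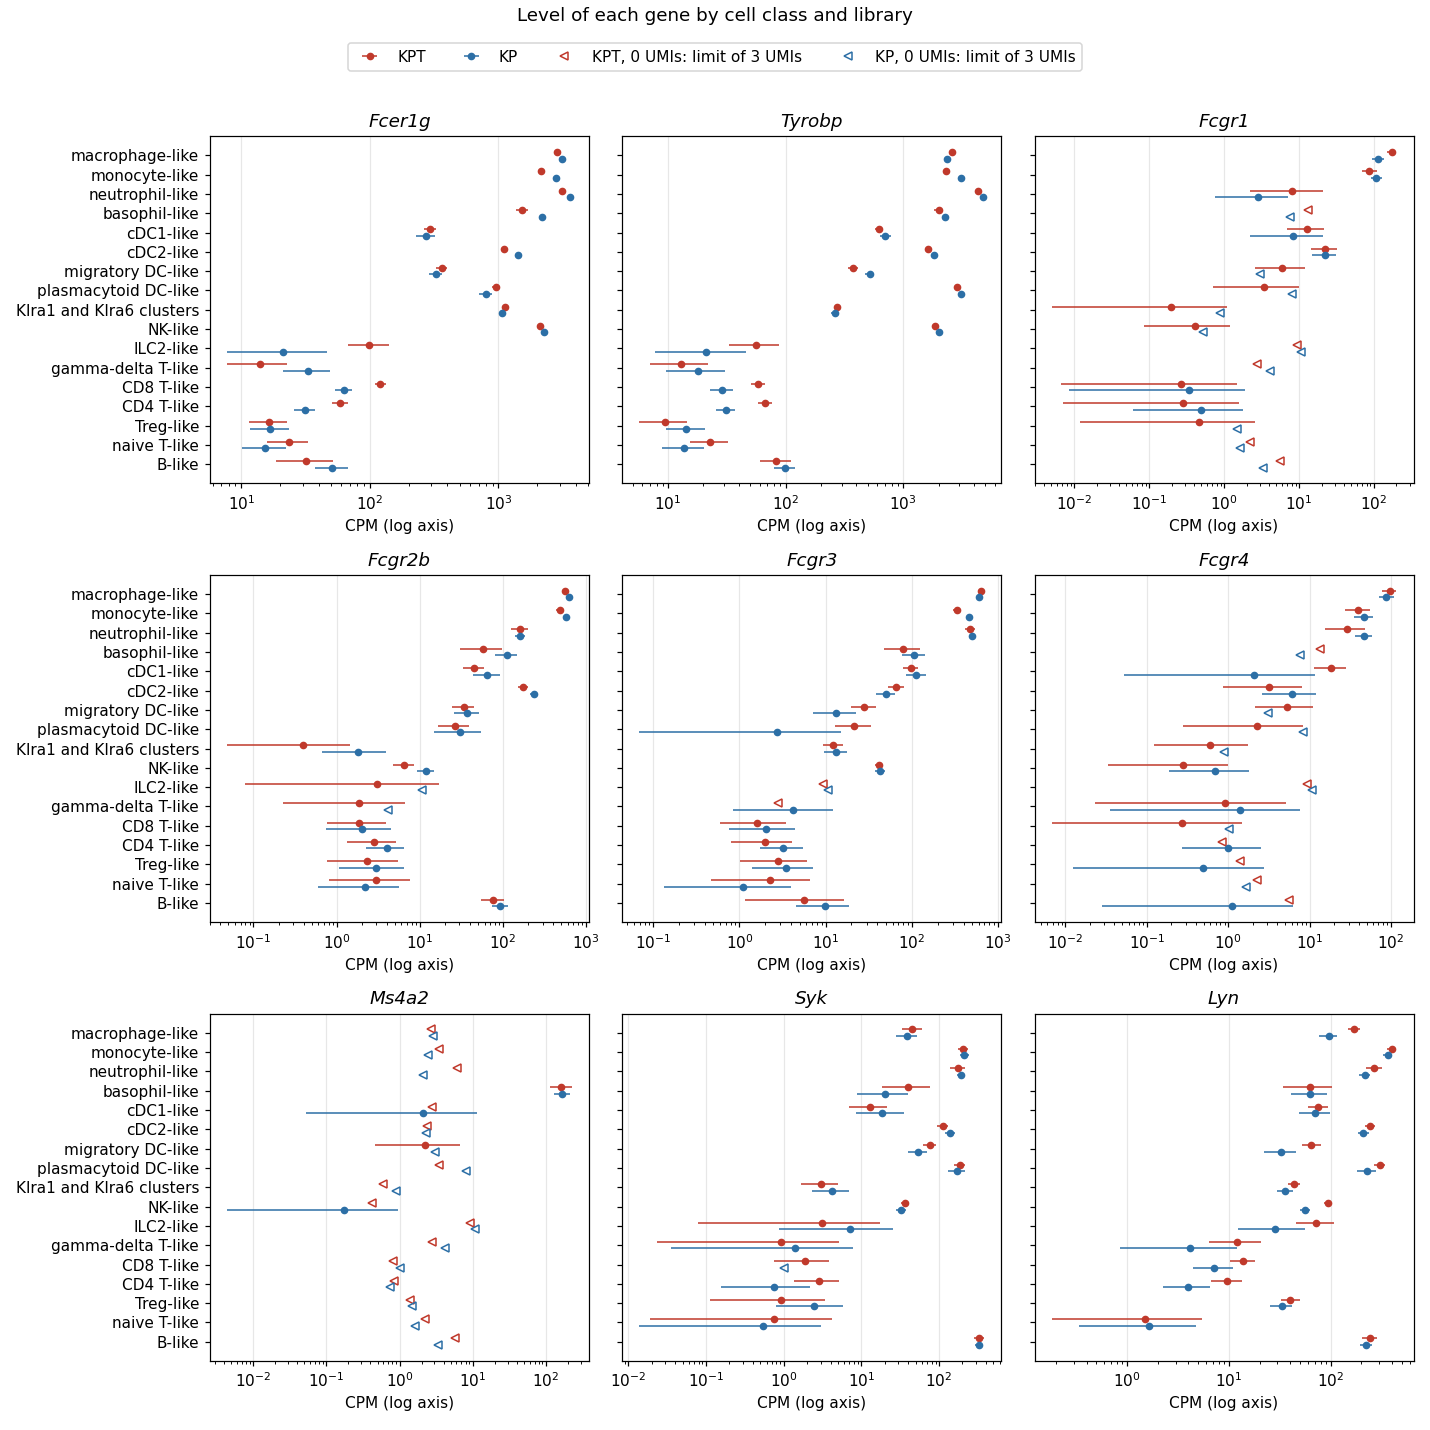
Level of each of the 9 genes (CPM, log axis) in 17 groups of cells, KPT in red above KP in blue, with exact Poisson 95% intervals, which cover counting error only. Open triangles mark libraries with 0 UMIs at the limit of 3 UMIs. Fcer1g and Tyrobp are high across phagocyte, NK-like and plasmacytoid DC-like cells, Fcgr1 and Fcgr4 in macrophage-like and monocyte-like cells, Ms4a2 in basophil-like cells, and Syk and Lyn also in B-like cells.

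The balance of the adaptors differed between cell classes far more than between the libraries. A 3′ kit counts each captured transcript end once, whatever the transcript's length, so UMIs of both genes were set side by side. NK-like cells had 1.13 Fcer1g UMIs per Tyrobp UMI in KPT and 1.13 in KP. Neutrophil-like cells had 0.720 in KPT and 0.759 in KP. Plasmacytoid DC-like cells leaned most to Tyrobp, with 0.333 in KPT and 0.254 in KP. CD8 T-like cells leaned the other way, with 2.06 in KPT and 2.19 in KP.

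A pair of clusters led by Klra1 and Klra6, genes of the Ly49 receptor family, leaned furthest to Fcer1g. Ly49 genes resemble each other closely, and no label or header says how shared reads were counted, so their single levels are uncertain. The 2 clusters held 553 KPT and 401 KP cells and stayed unnamed because no marker set reached the minimum score. Their Fcer1g level was 1117 CPM in KPT and 1064 CPM in KP, against Tyrobp at 275 CPM in KPT and 262 CPM in KP, or 4.07 Fcer1g UMIs per Tyrobp UMI in KPT and 4.06 in KP. An Fcer1g UMI was found in 79.2% of the KPT and 77.3% of the KP cells, at median depths of 7455 and 6837 UMIs. In naive T-like cells, which should lack the gene, the shares were 5.67% and 6.67% at 6071 and 6037 UMIs. These clusters also carried T cell receptor genes: Cd3e, a CD3 chain, stood at 456 CPM in KPT and 466 CPM in KP, and Trdc, the delta chain constant gene, at 105 and 99.0 CPM. Ncr1, an NK receptor gene, stood at 29.5 CPM in KPT and 28.4 CPM in KP, and Cd8a at 178 and 116 CPM. Within the pair, the cluster led by Tcrg-C2 had 1786 CPM Fcer1g in KPT and 1812 CPM in KP, and the cluster led by Klra1 had 645 CPM and 648 CPM. The KPT over KP ratio of Fcer1g was 0.985 (0.934 to 1.04) in the first of these and 0.997 (0.929 to 1.07) in the second, so the 2 clusters differed in level while the libraries differed little within each. Over the pair, the ratio was 1.05 (1.01 to 1.10) for Fcer1g, 1.05 (0.963 to 1.14) for Tyrobp, 0.939 (0.628 to 1.41) for Fcgr3 and 1.23 (0.981 to 1.55) for Lyn, so 0 of 4 measured genes were called, where 3.49% of all measured genes were called higher in KPT and 2.38% lower.

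**Figure D2:**
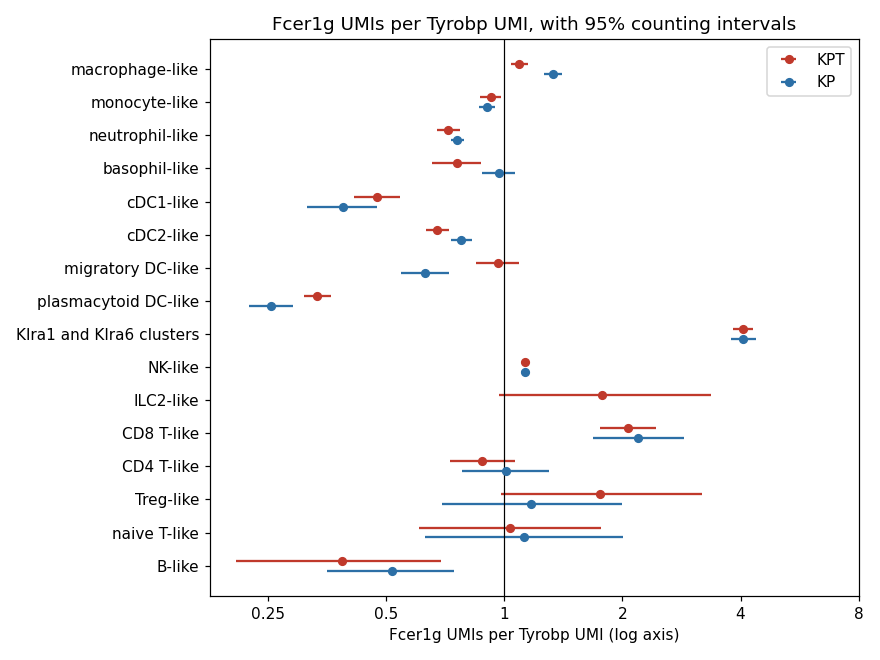
Fcer1g UMIs per Tyrobp UMI (log axis) by cell class, KPT in red above KP in blue, with exact 95% counting intervals; classes with too few UMIs in a library have no point. The Klra1 and Klra6 clusters sit near 4 in both libraries, NK-like cells near 1 and plasmacytoid DC-like cells below all others.

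Between the libraries, ratios of KPT over KP were taken where a gene had at least 50 UMIs over both libraries in a class of at least 100 cells in each. That left 36 of the 81 pairs of gene and class. A ratio of at least 1.5 is called higher in KPT here and one of at most 1/1.5 lower. Of the 36 ratios, 11 were higher, 3 lower and 22 within these bounds, and the interval lay above 1 for 11 and below 1 for 7. Over all measured pairs of gene and class in the 9 classes, 5.64% were called higher and 3.03% lower. These shares were 9.92% and 6.06% with a minimum of 20 UMIs, and 0.882% and 0.582% at a 2-fold rule. The higher calls were Lyn in 4 classes, Fcer1g and Tyrobp in 3 each, and Fcgr1 in 1. The count is a description, since the genes were chosen with some of these ratios known.

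In CD8 T-like cells all 3 measured genes were higher in KPT, where 4.68% of all 7772 measured genes were at least 1.5-fold higher and 1.88% lower. Fcer1g, one of the values the choice of genes used, had 450 UMIs in 400 KPT cells and 184 UMIs in 355 KP cells, or 121 CPM in KPT and 62.6 CPM in KP, a ratio of 1.93 (1.62 to 2.30). Tyrobp stood at 58.5 CPM in KPT and 28.6 CPM in KP, a ratio of 2.05 (1.58 to 2.67). The 10 cells with most Tyrobp UMIs held 75.2% of them in KPT and 66.7% in KP, and 12.25% of KPT and 10.7% of KP cells had one. Lyn stood at 13.7 CPM in KPT and 7.15 CPM in KP, a ratio of 1.92 (1.13 to 3.35). An Fcer1g UMI was present in 17.8% of KPT and 11.3% of KP cells, at median depths of 8028 and 6746 UMIs, against the naive T-like shares given above. After thinning each cell to 1000 UMIs the CD8 T-like shares were 4.50% and 2.55%. When a barcode's class was taken from its marker UMIs alone, the ratio was 1.42 for Fcer1g, 1.03 for Tyrobp and 1.44 for Lyn. Tyrobp thus depended on how cells were chosen and weighted, since its ratio was 1.20 after thinning and 1.31 with every cell given the same weight, but 2.11 at Leiden resolution 0.5 and 2.09 under a stricter cell filter.

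The Fcer1g signal in CD8 T-like cells sat in a minority of cells of 1 cluster. In the cluster led by Cd8a, Cd8b1 and Nrgn it was 154 CPM in 274 KPT cells and 80.5 CPM in 205 KP cells, a ratio of 1.92 (1.60 to 2.31). In the cluster led by Gzmk it was 14.6 CPM in KPT and 21.4 CPM in KP, from 13 and 19 UMIs. Cells with at least 3 Fcer1g UMIs numbered 25 of 400 in KPT and 14 of 355 in KP, and the 10 cells with most Fcer1g UMIs held 55.1% of them in KPT and 76.1% in KP. The 71 KPT cells with an Fcer1g UMI were deeper than the other 329, with medians of 11843 and 7547 UMIs. In the 40 KP cells with one and the other 315 the medians were 10466 and 6615 UMIs. Cd8a was at 785 CPM in the KPT cells with an Fcer1g UMI and 897 CPM in those without. In the KP cells Cd8a stood at 578 CPM with an Fcer1g UMI and 789 CPM without. Cd8b1, the other CD8 chain gene, was also lower where Fcer1g was found, at 492 CPM with and 713 CPM without an Fcer1g UMI in KPT, and at 365 and 697 CPM in KP.

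Some genes of other cells were higher where Fcer1g was found and some were not. Klra7, of the Ly49 family, was at 86.7 CPM in KPT CD8 T-like cells with an Fcer1g UMI and 4.34 CPM in those without, and at 111 and 4.86 CPM in KP. Klrb1c, which encodes NK1.1, was at 27.2 and 3.25 CPM in KPT, and at 25.6 and 2.02 CPM in KP. Apoe, abundant in macrophages, was at 115 and 35.8 CPM in KPT, and at 100.3 and 27.1 CPM in KP. Klrk1, which encodes the NK and T cell receptor NKG2D, was at 191 and 151 CPM in KPT but at 158 and 206 CPM in KP. Neutrophil genes went both ways. S100a9 was lower in cells with an Fcer1g UMI in both libraries, at 2.09 and 6.14 CPM in KPT and 6.40 and 15.4 CPM in KP. The values in cells with an Fcer1g UMI rest on 2 UMIs in KPT and 3 in KP. S100a8 was higher in cells with an Fcer1g UMI, at 5.22 and 4.34 CPM in KPT and 42.7 and 11.3 CPM in KP. Over the whole CD8 T-like class the 8 macrophage markers summed to 83.0 CPM in KPT, with 8 detected, and 55.5 CPM in KP, with Adgre1 at 0. The 7 NK markers summed to 760.3 CPM in KPT and 892 CPM in KP, with all 7 detected in both. Gzma weighed heavily in that sum, at 710 CPM with and 447 CPM without an Fcer1g UMI in KPT, and 625 and 643 CPM in KP. Ncr1 went the other way between the libraries, at 21.9 and 1.08 CPM in KPT and 2.13 and 0.405 CPM in KP. The sum thus does not give the direction of each NK marker. Fcer1g UMIs per Fcgr3 UMI were 75 in KPT and 30.7 in KP CD8 T-like cells, where Fcgr3 had 6 UMIs in each library. They were 4.41 and 5.20 in macrophage-like cells, 50.3 and 52.6 in NK-like cells, and 90.5 and 80.9 in the Klra1 and Klra6 clusters. Without the 18 KPT and 9 KP CD8 T-like barcodes that held UMIs of at least 2 of the NK markers Ncr1, Klrb1c and Klre1, the Fcer1g ratio was 2.07 and the Tyrobp ratio 1.54. Without the 27 KPT and 17 KP CD8 T-like barcodes that held at least 2 markers of another lineage, the ratio was 2.23 for Fcer1g, 2.64 for Tyrobp and 2.02 for Lyn.

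In CD4 T-like cells the same 3 genes were measured and all were higher in KPT, where 4.81% of all 7855 measured genes were called higher and 1.97% lower. Fcer1g stood at 58.8 CPM in KPT and 31.1 CPM in KP, a ratio of 1.89 (1.51 to 2.38). Tyrobp stood at 66.9 CPM in KPT and 30.9 CPM in KP, a ratio of 2.17 (1.74 to 2.72). Few barcodes set both ratios: without the 11 KPT and 2 KP barcodes with UMIs of at least 2 NK markers they were 1.13 and 1.08. They were also under 1.5 at Leiden resolution 0.5, at 1.33 and 1.32, and with every cell given the same weight, at 1.49 and 1.20. The difference lay in 1 cluster, led by Ccl1, Tnfsf11 and Penk, where Fcer1g was 103 CPM in 264 KPT cells and 29.2 CPM in 345 KP cells. In the cluster led by Cd40lg, Fcer1g was 23.7 CPM in KPT and 33.1 CPM in KP, a ratio of 0.716 (0.481 to 1.06). The 7 NK markers summed to 198 CPM in KPT and 108 CPM in KP CD4 T-like cells, and the 8 macrophage markers to 57.4 and 35.3 CPM. Lyn stood at 9.56 CPM in KPT and 3.98 CPM in KP, a ratio of 2.40 (1.29 to 4.66), from 34 and 16 UMIs, which is the minimum of 50 in all, and its ratio was 2.09 without the NK-marker barcodes and just under 1.5 after thinning. Klra4, a Ly49 receptor gene that pairs with Tyrobp, stood at 14.6 CPM in KPT and 2.74 CPM in KP, a ratio of 5.34 (2.75 to 11.4).

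In naive T-like cells 2 of 2 measured genes were called higher in KPT, where 3.9% of all measured genes were called higher and 3.45% lower, but both intervals held 1. Fcer1g had 31 UMIs in KPT and 28 in KP, a ratio of 1.52 (0.881 to 2.63), and Tyrobp 30 and 25 UMIs, a ratio of 1.65 (0.935 to 2.92). Leaving out 1 barcode with NK markers in each library turned these ratios to 0.719 and 0.664, so their direction was set by single barcodes. In Treg-like cells, where 3.66% of all measured genes were called higher and 2.93% lower, 0 of 2 were called. Fcer1g stood at 16.4 CPM in KPT and 16.7 CPM in KP there, a ratio of 0.979 (0.593 to 1.62). In gamma-delta T-like cells, where 8.42% of genes were called higher and 2.62% lower, none of the 9 genes reached 50 UMIs.

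In NK-like cells, with 1005 KPT and 854 KP cells, the adaptors were close to equal and Lyn stood out. Of 6 measured genes 1 was called higher in KPT and 1 lower, where 3.67% of all 9031 measured genes were called higher and 1.44% lower. The ratio was 0.933 (0.912 to 0.956) for Fcer1g and 0.932 (0.909 to 0.955) for Tyrobp, both slightly below 1 by more than counting error. The clusters did not all share this direction. Fcer1g was at 0.914 (0.884 to 0.946) in the cluster led by Klra4 and 0.940 (0.905 to 0.976) in that led by Gzmc. In the cluster led by Cma1 it was at 1.10 (1.03 to 1.17). Tyrobp was at 0.876 (0.848 to 0.906), 1.05 (0.997 to 1.10) and 0.946 (0.886 to 1.01) in the same order. Fcgr3, which encodes the low-affinity IgG receptor through which NK cells recognise antibody-coated cells, stood at 42.1 CPM in KPT and 43.1 CPM in KP, a ratio of 0.975 (0.822 to 1.16). Syk stood at 36.1 CPM in KPT and 32.7 CPM in KP, a ratio of 1.10 (0.912 to 1.34). Its ratio was 1.84 (1.10 to 3.16) in the NK-like cluster led by Gzmc. In the clusters led by Klra4 and Cma1 it was 0.971 (0.770 to 1.23) and 1.02 (0.617 to 1.68).

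Lyn in NK-like cells, the other value the choice of genes used, had 678 UMIs in KPT and 322 in KP, or 93.5 CPM in KPT and 55.8 CPM in KP, a ratio of 1.68 (1.47 to 1.92). A Lyn UMI was found in 40.6% of KPT and 26.7% of KP cells at median depths of 6024 and 5554 UMIs. In naive T-like cells the shares were 1.03% and 0.702%. After thinning to 1000 UMIs the NK-like shares were 8.76% and 5.08%. The signal was spread over many cells, as the 10 cells with most Lyn UMIs held 8.26% of them in KPT and 12.1% in KP. It was also higher in KPT in each of the 3 NK-like clusters. The cluster led by Klra4 and Klra8 had 108 CPM in KPT and 71.5 CPM in KP, a ratio of 1.51 (1.27 to 1.80). The cluster led by Gzmc and Klrb1b had 66.4 and 37.7 CPM, a ratio of 1.76 (1.36 to 2.29). The smallest cluster, led by Cma1 and Gzma, had 126 and 57.4 CPM, a ratio of 2.19 (1.47 to 3.29). Across the 6 other settings that alter this class the ratio ran from 1.63 to 1.94. The 8 macrophage markers summed to 65.1 CPM in KPT and 42.8 CPM in KP NK-like cells, and their part in the Lyn ratio was not tested beyond leaving out barcodes with at least 2 markers of another lineage, which gave 1.63.

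**Figure D3:**
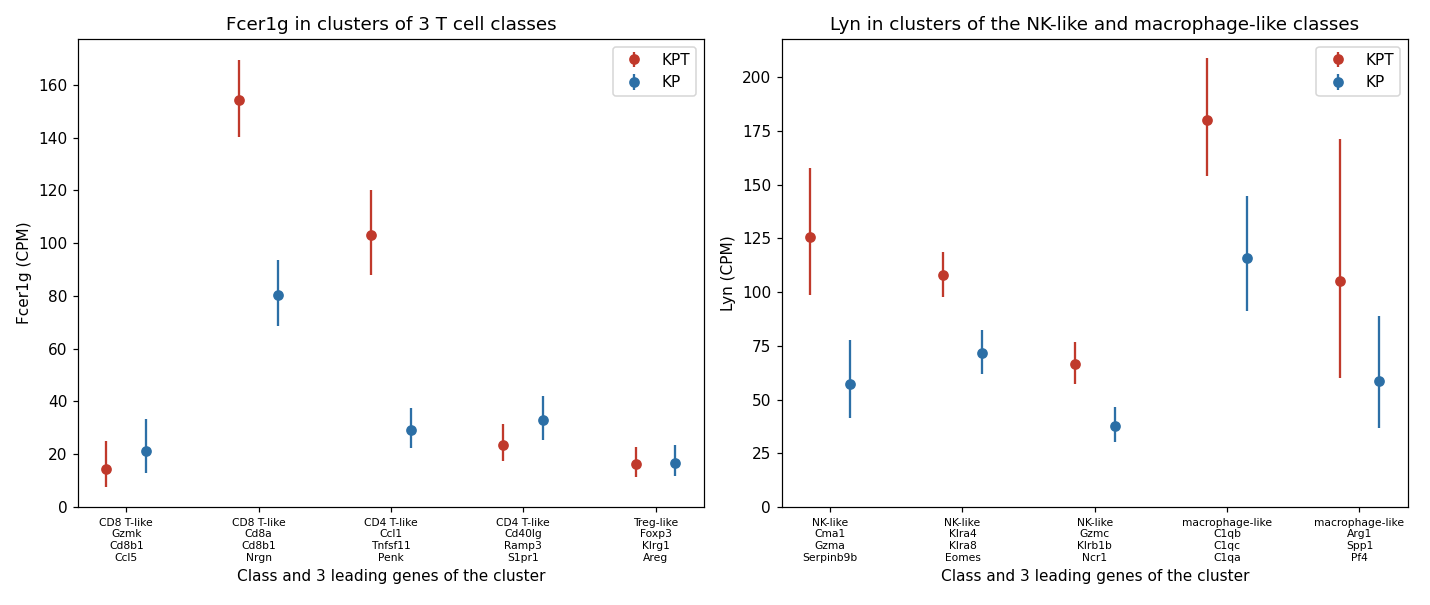
Fcer1g in the clusters of the CD8 T-like, CD4 T-like and Treg-like classes (left) and Lyn in the clusters of the NK-like and macrophage-like classes (right), as CPM, KPT in red left of KP in blue, with exact Poisson 95% intervals. Fcer1g is higher in KPT in 1 CD8 T-like and 1 CD4 T-like cluster and not in their neighbours, whereas Lyn is higher in KPT in all 5 clusters shown, with overlapping intervals in the Arg1 cluster.

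Lyn, a Src-family kinase of B cells and myeloid cells, was the gene whose ratio was above 1 in all 7 classes where it was measured, with the interval above 1 in 5. In macrophage-like cells it stood at 169.7 CPM in KPT and 95.2 CPM in KP, a ratio of 1.78 (1.39 to 2.30). In neutrophil-like cells it stood at 267 CPM in KPT and 215 CPM in KP, a ratio of 1.24 (1.00 to 1.53). Where Lyn is best known, in B-like cells, it stood at 241 CPM in KPT and 223 CPM in KP, a ratio of 1.08 (0.859 to 1.35), whose interval held 1. Treg-like cells had 40.2 CPM in KPT and 32.9 CPM in KP, a ratio of 1.22 (0.877 to 1.71). The classes below 100 cells in a library are given here by level only: Lyn was at 396 CPM in KPT and 363 CPM in KP in monocyte-like cells and at 64.7 CPM in KPT and 32.6 CPM in KP in migratory DC-like cells. Barcodes with at least 2 markers of another lineage made up 43.4% of KPT and 28.6% of KP migratory DC-like cells. In monocyte-like cells they made up 26.6% and 24.4%. Lyn was not higher in KPT everywhere. Naive T-like cells had 2 Lyn UMIs in KPT and 3 in KP, too few for a ratio, and basophil-like cells had 62.0 CPM in KPT and 63.0 CPM in KP. The smaller B-like cluster, led by Iglc2, had a ratio of 0.765 (0.415 to 1.38). Among the unnamed clusters of mixed barcodes a cluster with Thbs1 and Chil3 among its leading genes had 157 CPM in KPT and 208 CPM in KP. With classes taken from marker UMIs alone, the macrophage-like ratio of Lyn was 1.00.

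Syk, the kinase that binds the phosphorylated ITAM, did not share this pattern over whole classes: 0 of its 4 measured class ratios were called. Within NK-like cells the cluster led by Gzmc was past 1.5-fold, as given above. It was highest in B-like cells, where it serves the B cell receptor, at 326 CPM in KPT and 327 CPM in KP, a ratio of 0.997 (0.821 to 1.21). Neutrophil-like cells had 175 CPM in KPT and 191 CPM in KP, a ratio of 0.918 (0.712 to 1.17). Macrophage-like cells had less, 45.1 CPM in KPT and 38.5 CPM in KP, with a ratio of 1.17 (0.758 to 1.82). In CD8 T-like cells Syk had 7 UMIs in KPT and 0 in KP, where a count of 0 allows up to 1.02 CPM (3 UMIs). T cells use Zap70 in its place.

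The IgG receptors marked the phagocytes. Fcgr1, the high-affinity receptor, was at 172 CPM in KPT and 113 CPM in KP in macrophage-like cells and 87.1 CPM in KPT and 108 CPM in KP in monocyte-like cells. It was at or under 0.340 CPM in CD8 T-like cells and had 0 UMIs in B-like cells of both libraries. Fcgr2b, the inhibitory receptor, was at 551 CPM in KPT and 621 CPM in KP in macrophage-like cells and at 75.3 CPM in KPT and 92.8 CPM in KP in B-like cells, whose only Fc receptor for IgG it is known to be. Fcgr3 was at 642 CPM in KPT and 604 CPM in KP in macrophage-like cells and 474 CPM in KPT and 503 CPM in KP in neutrophil-like cells. Fcgr4, an activating receptor of phagocytes, was the scarcest of the 4, at 95.7 CPM in KPT and 87.6 CPM in KP in macrophage-like cells. Fcgr3 exceeded the inhibitory Fcgr2b most in NK-like cells, with 6.49 Fcgr3 UMIs per Fcgr2b UMI in KPT and 3.66 in KP, among the named classes with enough UMIs of both for this. They were near equal in macrophage-like cells, with 1.17 and 0.974. In cDC2-like cells Fcgr2b prevailed, with 0.384 and 0.210. Fcgr2b and Fcgr3 share much of their extracellular sequence, and no label or header says how the counting treated any shared reads, so this balance carries that limit.

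In macrophage-like cells 2 of 8 measured genes were called higher in KPT and 0 lower, where 14.8% of all 3593 measured genes were called higher and 5.2% lower. Fcgr1 had a ratio of 1.53 (1.21 to 1.94). The class was made up differently in the libraries: the cluster led by C1qb held 256 of 298 KPT and 159 of 249 KP cells, and the rest fell in the cluster led by Arg1 and Spp1. Within the C1qb cluster Fcgr1 was 184 CPM in KPT and 159 CPM in KP, a ratio of 1.16 (0.903 to 1.48), and within the Arg1 cluster 98.8 CPM and 29.4 CPM, from 15 and 11 UMIs. Lyn had a ratio of 1.55 (1.18 to 2.06) within the C1qb cluster. With classes from marker UMIs alone, which let mixed barcodes in, the class ratio of Fcgr1 turned to 0.723, and it was under 1.5 at Leiden resolution 0.5 (1.42), under the stricter cell filter (1.47) and with cells weighted equally (1.38). The other class ratios lay near 1, with Fcer1g at 0.901 (0.858 to 0.947), Tyrobp at 1.09 (1.04 to 1.16), Fcgr2b at 0.887 (0.793 to 0.993), Fcgr3 at 1.06 (0.953 to 1.18) and Fcgr4 at 1.09 (0.818 to 1.46). These ratios also depended on the processing. Over 7 settings Fcer1g ran from 0.615 to 0.902 and Tyrobp from 0.694 to 1.15. Fcgr2b ran from 0.603 to 0.942, Fcgr3 from 0.642 to 1.16 and Fcgr4 from 0.719 to 1.54. The 8 macrophage markers summed to 33494 CPM in KPT and 20508 CPM in KP, and the 7 neutrophil markers to 523 and 1443 CPM.

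In neutrophil-like cells 1 of 7 measured genes was called lower in KPT and 0 higher, where 8.15% of all measured genes were called lower and 8.81% higher. That gene was Fcgr4, at 28.5 CPM in KPT and 46.4 CPM in KP from 14 and 66 UMIs, with a ratio of 0.614 (0.318 to 1.10) that held 1. It was 0.193 after thinning and 0.718 under the stricter cell filter. Thinning left out 65 KPT and 187 KP cells with fewer than 1000 UMIs. An Fcgr4 UMI was then left in only 0.685% of 146 KPT cells, so 0.193 rests on very few UMIs. Fcer1g, at 0.864 (0.815 to 0.915), and Tyrobp, at 0.911 (0.867 to 0.956), lay slightly below 1 by more than counting error. Fcgr3 had a ratio of 0.943 (0.810 to 1.09). In B-like cells 1 of 5 was called lower and 0 higher, where 4.71% of all measured genes were called lower and 4.8% higher. That gene was Fcer1g, with 17 UMIs in KPT and 46 in KP, a ratio of 0.630 (0.339 to 1.12). The ratio was 1.00 with classes from marker UMIs alone. Its share of B-like cells, 6.43% in KPT and 12.1% in KP at 3531 and 3710 UMIs, was near the naive T-like share in KPT and above it in KP, and the 8 macrophage markers summed to 591 CPM in KPT and 662 CPM in KP B-like cells. All 8 macrophage markers had a UMI in KPT, but C1qc and Ms4a7 were at 0 in KP. The 7 neutrophil markers summed to 685 CPM in KPT, with Retnlg, Csf3r, Cxcr2 and Mmp9 at 0, and 295 CPM in KP, with all 7 detected. Without the 4 KPT and 17 KP B-like barcodes that held at least 2 markers of another lineage, the Fcer1g ratio was 0.531. In NK-like cells the gene called lower was Fcgr2b, at 6.48 CPM in KPT and 11.8 CPM in KP, a ratio of 0.550 (0.371 to 0.810). It had a UMI in 4.28% of KPT and 6.44% of KP NK-like cells, against 1.75% and 1.13% of the deeper CD8 T-like cells. The NK-like cluster led by Cma1 had 23.8 CPM in KPT and 43.4 CPM in KP. It held 135 of the 1005 KPT and 162 of the 854 KP NK-like cells. In the largest NK-like cluster, led by Klra4, the Fcgr2b ratio was 0.797 (0.450 to 1.42), whose interval held 1. The part of class make-up in the class ratio was not tested. With classes from marker UMIs alone the class ratio turned to 1.41.

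Ms4a2, the beta chain of the high-affinity IgE receptor of mast cells and basophils, was nearly confined to basophil-like cells. These held 82.2% of its UMIs in KPT and 95.7% in KP. Its level there was 164 CPM in KPT and 166 CPM in KP, with a UMI in 48.6% of 37 KPT cells and 50.7% of 75 KP cells. Fcer1g, the gamma chain of this receptor, was at 1514 CPM in KPT and 2193 CPM in KP in the same cells. Lyn, which starts signalling from this receptor, was at 62.0 CPM in KPT and 63.0 CPM in KP. The class was too small in KPT for a ratio. In NK-like cells Ms4a2 had 0 UMIs in KPT, which allows up to 0.414 CPM (3 UMIs), and 1 UMI in KP.

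Promoter sequence was looked at for the IgG receptors because all 4 were highest or near highest in macrophage-like cells. The RefSeq table (GRCm38.p6) held 9 promoters of 7 of the 9 genes, with none for Tyrobp and Lyn. The motif AGAGGAAG, a purine-rich core of the kind bound by ETS factors such as PU.1, was searched on both strands (CTTCCTCT on the other) in the 250 bases before each start. It was chosen after the sequences were seen. It was present in 3 of the 9 promoters, those of Fcgr1, Fcgr3 and Fcgr4, each on the strand opposite to the gene, and in 3.67% of all 32851 promoters in the table. The windows are 60 bases each, in the gene's direction, with the motif in capitals.
Fcgr1 chr3:96293986-96294045, minus strand: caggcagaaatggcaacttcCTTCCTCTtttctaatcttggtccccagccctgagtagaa
Fcgr3 chr1:171059395-171059454, minus strand: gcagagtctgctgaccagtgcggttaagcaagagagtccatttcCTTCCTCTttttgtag
Fcgr4 chr1:171018866-171018925, plus strand: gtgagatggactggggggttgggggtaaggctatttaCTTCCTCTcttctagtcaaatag
The motif began 56, 16 and 23 bases before the start of Fcgr1, Fcgr3 and Fcgr4, where the Fcgr3 start is 1 of its 2 RefSeq starts, both of which lie within the annotated gene. The shorter core GAGGAA, which lies within it, was in 5 of the 9 promoters and in 23.3% of all. A match is a description of these letters and says nothing of binding.

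The genes closest to each of the 9 in pattern were found by Pearson's r of log2(CPM + 1) over 32 points of class and library with at least 50 cells, among genes with at least 200 UMIs. The points share libraries and classes, so r is a description. Fcer1g was closest to Tyrobp (r = 0.960), then Fcgr3 (0.867) and Apobr (0.860). Tyrobp was closest to Fcer1g, then Fcgr3 (0.902) and Zfhx3 (0.895). The IgG receptors had myeloid neighbours. Fcgr1 was closest to Lyz2, the lysozyme gene of phagocytes (0.967), Tgfbi (0.955) and Clec4a3 (0.952). Fcgr2b was close to Zeb2os (0.936) and Spi1, which encodes PU.1 (0.936). Fcgr3 was closest to Pilrb1 (0.942), Stx3 (0.905) and Pilra (0.904), and Fcgr4 to P2ry6 (0.938), Sirpb1c (0.926) and Clec4a2 (0.926). Ms4a2 followed the basophil genes Mcpt8 (0.988), Gata2 (0.984) and Cyp11a1 (0.955). Syk was close to Aldh2 (0.896) and Lyn (0.887). Lyn was closest to Syk, then to Plcg2, a phospholipase that acts below both (0.876).

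The rest of the pathway was read from 8 lists, some of which hold members of the 9, counted at the same 1.5-fold rule in the 3 classes where the results turn. In NK-like cells, where 3.67% of all measured genes were called higher and 1.44% lower, the receptors known to pair with Fcer1g, such as Ncr1, had 6 of 14 members measured, 0 higher and 1 lower (Clec4e, 0.591 (0.329 to 1.05)), with a median log2 ratio of -0.05 against 0.06 for all measured genes. Klrb1c, at 288 CPM in KPT and 302 CPM in KP, and Ncr1, at 267 CPM in KPT and 265 CPM in KP, were the most abundant of them and both had ratios near 1, 0.953 (0.894 to 1.02) and 1.01 (0.941 to 1.08). The receptors that pair with Tyrobp had 4 of 15 measured, 0 higher and 1 lower, with a median log2 ratio of 0.18. Klra4 was at 417 CPM in KPT and 355 CPM in KP and Klra8, which recognises a viral protein on infected cells, at 335 CPM in KPT and 293 CPM in KP. The lower one was Pilrb1, at 2.90 CPM in KPT and 5.89 CPM in KP, a ratio of 0.492 (0.271 to 0.872). Of the Src-family kinases 5 of 8 were measured in NK-like cells and 1 was called, which was Lyn, while Lck had a ratio of 1.04 (0.959 to 1.12) and Fyn 1.07 (0.990 to 1.16). Of the genes of signalling below the ITAM 16 of 20 were measured, 1 higher and 1 lower (Sh3bp2, 0.633 (0.394 to 1.01)), the higher being the phospholipase Plcg1, at 5.93 CPM in KPT and 2.94 CPM in KP, a ratio of 2.01 (1.13 to 3.77). Of the other ITAM chains and DAP10 5 of 7 were measured and 0 called, and Hcst, which encodes DAP10, was at 626 CPM in KPT and 751 CPM in KP, a ratio of 0.833 (0.799 to 0.869). Of the phosphatases and brakes 13 of 14 were measured and 0 called. Of the ITIM receptors 6 of 16 were measured and the lower one was Fcgr2b itself. The list of other immunoglobulin receptors had 1 of 10 measured and 0 called.

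In CD8 T-like cells the CD3 chains and their kinases did not follow Fcer1g. Of the other ITAM chains and DAP10 6 of 7 were measured and 0 called, with a median log2 ratio of 0.03 against 0.07 for all measured genes, and Cd3g had a ratio of 1.00 (0.964 to 1.04) and Cd3d one of 0.948 (0.908 to 0.989). Below the ITAM 2 of 13 measured genes were higher and 0 lower, where 4.68% of all measured genes were called higher and 1.88% lower. They were the exchange factors Vav1, at 36.5 CPM in KPT and 19.7 CPM in KP, a ratio of 1.85 (1.35 to 2.56), and Vav3, at 15.6 CPM in KPT and 7.83 CPM in KP, a ratio of 1.99 (1.21 to 3.38). Of the phosphatases and brakes 0 of 13 measured were called, and of the 3 Src-family kinases measured 1 was, which was Lyn. The receptors that pair with Fcer1g had 1 measured and higher, Klrb1c, with a ratio of 1.62 (0.886 to 3.09), and those that pair with Tyrobp 1 measured and 0 called. Of 4 ITIM receptors measured Cd72 was lower, with 34 UMIs in KPT and 44 in KP, a ratio of 0.610 (0.378 to 0.976).

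In macrophage-like cells the receptors that pair with Fcer1g went both ways, with 1 of 6 measured higher and 2 lower. The higher one was Fcgr1, and the lower ones were the C-type lectins Clec4d, at 116 CPM in KPT and 221 CPM in KP, a ratio of 0.522 (0.417 to 0.651), and Clec4e, at 74.9 CPM in KPT and 121 CPM in KP, a ratio of 0.618 (0.463 to 0.822). Clec4n, also a C-type lectin, was the most abundant, with a ratio of 0.975 (0.896 to 1.06). Of 7 measured receptors that pair with Tyrobp 1 was lower, Trem1, at 19.9 CPM in KPT and 40.4 CPM in KP, a ratio of 0.491 (0.279 to 0.842), while Trem2 had a ratio of 0.872 (0.750 to 1.01). Below the ITAM 3 of 10 measured genes were higher and 0 lower, where 14.8% of all measured genes were called higher and 5.2% lower, among them the adaptor Lcp2, which encodes SLP-76, at 56.9 CPM in KPT and 26.0 CPM in KP, a ratio of 2.19 (1.37 to 3.58), and Plcg2, at 35.2 CPM in KPT and 19.2 CPM in KP, a ratio of 1.83 (1.04 to 3.31). The median log2 ratio of this list was 0.29, against 0.10 for all measured genes in the class. Of 8 measured phosphatases and brakes 3 were higher and 1 lower, and Ptprc, which encodes CD45, a phosphatase that acts on Src-family kinases, was at 292 CPM in KPT and 184 CPM in KP, a ratio of 1.59 (1.32 to 1.91). Sla had a ratio of 1.67 (1.12 to 2.51) and Dok2 was the lower one, at 0.598 (0.412 to 0.860). Of 12 measured ITIM receptors 0 were higher and 1 lower, Lilr4b, with a ratio of 0.630 (0.502 to 0.789). Of the 3 ITAM chains measured 1 was higher, the T cell chain Cd3g, with a ratio of 1.68 (1.13 to 2.51), which is RNA that macrophages should lack. The list of other immunoglobulin receptors had 2 measured and 0 called, and the Src-family kinases 3 measured with Lyn higher. Clec4d, Clec4e and Trem1 are also abundant in neutrophils, and the neutrophil markers in this class were lower in KPT, as given above. The part of neutrophil and T cell RNA in these ratios was not tested.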

How the data were processed

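Deposited files held raw UMI counts per gene and barcode, from Cell Ranger 6.0.1 per the file headers. Seurat and mm10 are also named, without a role, per the submitters' processing notes. The deposited counts are not normalised and cover called cells only, with at least 502 UMIs per barcode in KPT and 500 in KP, so the free RNA of empty droplets was out of reach. Entries with a shared symbol were summed.

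The filters were a minimum of 200 genes and a maximum of 10% mitochondrial UMIs. Joint clustering of the libraries used scanpy 1.11.5 (Python 3.11.15, leidenalg 0.10.2, igraph 0.11.9, numpy 2.4.6, scipy 1.17.1, pandas 2.3.3) and left the 9 genes out of the variable genes, and clusters were named from marker sets. The limits that kept mixed or low-scoring clusters unnamed were set after the data were seen. No doublet caller was used, and clusters where at least 40% of barcodes held T cell and phagocyte genes stayed out. UMIs were summed per class and library (CPM), with exact Poisson and conditional Poisson intervals, which cover counting error only. UMIs of 1 library are not replicates. The ratio calculation was tested on simulated data. Alternatives were classes from marker UMIs, barcodes with other lineages left out, thinning, a stricter cell filter, equal cell weights, Leiden resolution 0.5, a minimum of 20 UMIs and a 2-fold rule. The 9 genes and the lists were chosen with earlier results of these data known. Beside the 9 genes, the text names from each list the 2 most abundant measured members of the class and up to 4 past 1.5-fold, the 3 nearest genes in pattern (some are not reported here), and marker or leading genes of clusters. Klra7, Klrk1, Apoe, S100a8, S100a9 and Trem2, and the CD8 T-like values of Gzma and Ncr1, were chosen after their values were seen.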

Additional observations from a re-analysis of the deposited data

Results flagged for a closer look

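Fcer1g was past 1.5-fold in opposite directions in different classes, which is what put it here. The KPT over KP ratio was 1.93 in CD8 T-like cells, 1.89 in CD4 T-like cells, 1.52 in naive T-like cells and 0.630 in B-like cells. The difference between the classes was not tested, since each group is 1 library, and the intervals of the naive T-like and B-like ratios held 1.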

How the results depend on the processing

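Over the 36 ratios and 7 settings, 209 of 252 values lay within the counting interval of the reported ratio and 36 lay outside it. The other 7 turned direction, which was counted only for ratios past 1.5-fold. Ratios nearer 1 that crossed 1 count among the 209 or the 36. An example is Tyrobp in macrophage-like cells, at 1.09 and 0.694 at the lowest. The setting without T cell barcodes that hold NK markers was chosen after seeing the data. It alters T cell classes only, so its values in other classes equal the reported ratio by construction and count among the 209. The 11 ratios called higher in KPT became 5 with classes from marker UMIs alone, 7 without barcodes with markers of another lineage, 7 after thinning to 1000 UMIs, 5 with cells weighted equally, 7 without T cell barcodes with NK markers and 3 at a 2-fold rule. The 3 called lower became 5 without barcodes with markers of another lineage, 1 among cells with at least 500 genes and at most 5% mitochondrial UMIs, 6 at a minimum of 20 UMIs and 0 at a 2-fold rule. Among ratios past 1.5-fold, 3 turned with classes from marker UMIs alone: Fcer1g in B-like cells (1.00), Fcgr2b in NK-like cells (1.41) and Fcgr1 in macrophage-like cells (0.723). In naive T-like cells Fcer1g and Tyrobp turned to 0.461 each without barcodes of another lineage, and to 0.719 and 0.664 without barcodes with NK markers. The cause of these changes was not tested, apart from the barcodes left out by construction. Lyn in NK-like cells stayed past 1.5-fold in the 6 settings that alter this class. Depth limits the ratios that rest on few UMIs, such as Fcgr4 in neutrophil-like cells (14 in KPT and 66 in KP) and Fcer1g in B-like cells (17 and 46). No paired analysis was possible because each group is 1 library and the labels give no replicate numbers.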
